A study of Mus musculus with 4 samples.

Results

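The genes described here build and run the early secretory pathway: the machinery that brings new proteins into the endoplasmic reticulum (ER), folds them there, and packs them into coated vesicles. They were chosen by name. A probe set is the group of short probes that reads 1 transcript on the array. It was taken when the platform annotation gave it a single gene symbol of this machinery. The naming rule used no measured value, but the members were chosen with earlier results of these data known. The rule gave 90 of 12422 probe sets, which read 64 of 8251 genes. The seminal vesicle of each of 4 mice (strain C57Bl/6J, wild type with the genotype Nkx3.1 +/+, 15 months old) was hybridised to its own Affymetrix Mu74AV2 array, a short-oligonucleotide array for mouse transcripts. All 4 mice form 1 group, so the data show which of these genes gave signal in the gland and how they varied between mice. They hold no comparison of genotype, age or tissue. Nothing in the labels says whether the mice shared a litter or the arrays a hybridisation batch.

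A secreted protein is recognised by the signal recognition particle as it leaves the ribosome, is threaded through the Sec61 channel into the ER, and loses its signal peptide to signal peptidase. In the ER lumen, chaperones such as BiP (gene Hspa5) hold it while disulfide isomerases form its cross-links. COPII vesicles then carry it to the Golgi, and COPI vesicles bring escaped ER proteins back. When unfolded protein accumulates, the factors ATF6, XBP1 and ATF4 raise transcription of stress genes, ATF6 and XBP1 in part through a promoter motif named the ER stress response element (ERSE). The seminal vesicle epithelium secretes large amounts of a few proteins into the ejaculate, and much of that protein is cross-linked later in the copulatory plug.

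The copies of the ERSE are shown first, as a feature of the folding genes that the choice by name did not use. The element is known from promoters of ER chaperone genes such as Hspa5, so its presence in that role is no independent result. The motif, CCAAT and CCACG with any 9 bases between them, was searched on both strands of the RefSeq promoter windows (assembly GRCm38.p6), which run from 250 bases before each gene's start to 50 after it. Windows were found for 52 of the 64 genes, and 7 of these 52 (13.5%) held the motif, against 37 of 27025 genes (0.137%) over all windows. All 5 chaperone genes with a window held it (Calr, Canx, Creld2, Hsp90b1 and Hspa5), as did 2 of 7 disulfide enzyme genes (Ero1b and Pdia6). It was in no window of the other 7 roles. Hsp90b1 held 2 copies. The 8 copies lay between 47 and 212 bases before the start, and 4 read in the direction of the gene. They are given 5′ to 3′ on the strand on which the motif reads forward, with the fixed letters of the motif in capitals:
Calr chr8:84847075-84847093 (+): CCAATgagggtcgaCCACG
Canx chr11:50325800-50325818 (-): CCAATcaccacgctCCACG
Creld2 chr15:88819520-88819538 (-): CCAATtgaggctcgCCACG
Ero1b chr13:12565682-12565700 (-): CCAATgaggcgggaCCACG
Hsp90b1 chr10:86705533-86705551 (+): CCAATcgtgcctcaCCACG
Hsp90b1 chr10:86705638-86705656 (-): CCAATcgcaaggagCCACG
Hspa5 chr2:34772025-34772043 (+): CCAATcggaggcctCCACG
Pdia6 chr12:17266491-17266509 (+): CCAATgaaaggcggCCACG

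The Hspa5 copy is shown in its surroundings because this promoter is the textbook example of the element. The 100 bases from 120 to 21 bases before the start (chr2:34771970-34772069, plus strand, the motif in capitals) read:
Hspa5: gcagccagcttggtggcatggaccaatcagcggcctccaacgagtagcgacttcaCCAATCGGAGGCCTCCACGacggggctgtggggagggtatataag

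Of 2 further motifs of the same response, ERSE-II (ATTGG and CCACG with 1 base between them) was not in the window of any member, and 12 of 27025 genes (0.0444%) held it. TGACGTGG, the core of the unfolded protein response element, was in the windows of 4 of 52 member genes (7.69%), against 193 of 27025 (0.714%). The 4 were Copb1 and Copb2 of the COPI coat, Sec23a of the COPII coat and the retrieval receptor gene Kdelr3. A match of letters is a description of the sequence and not a measured binding site. The lack of an exact match in a window does not show that a gene has no such element.

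Values below are log2 expression values of the robust multi-array average (RMA) per probe set, so 1 unit is a 2-fold difference. A probe set was counted as above the background range when it exceeded a limit on all 4 arrays. The limit of an array was the 90th percentile over 103 probe sets that read 85 genes typical of liver, brain, pancreas and other organs. These limits were 6.13, 5.99, 6.07 and 6.21 in mice 1 to 4, with a mean of 6.10. Each probe set has its own sensitivity, so no level was ranked against that of another probe set. The 4 arrays correlated closely (Pearson's r across probe sets from 0.992 to 0.994). Markers of the labelled tissue were present, with 6 of 6 seminal vesicle secretion genes and 4 of 4 luminal epithelium genes above the range, alongside 6 of 6 smooth muscle genes, 2 of 3 fibroblast genes, 2 of 8 plasma and B cell genes and 1 of 4 macrophage genes. In whole tissue, fewer cells of a type and less RNA per cell cannot be told apart.

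Most of the early secretory pathway gave signal. At least 1 probe set was above the background range for 46 of the 64 genes (71.9%), against 2399 of 8251 genes (29.1%) over the whole array. Counted by probe set it was 54 of 90 (60%), against 2959 of 12422 (23.8%), or 24.3% of those that name a single gene. Of 71 measured genes of the same pathway outside the naming rule, such as the oligosaccharyltransferase subunit genes Rpn1 (8.08 ± 0.14, SD, n = 4 mice) and Rpn2 (9.30 ± 0.07), 54 (76.1%) were above. By role, the count was 4 of 7 genes for signal recognition, 6 of 9 for the translocation channel, 3 of 4 for signal peptidase and 5 of 7 for chaperones. It was 6 of 7 for disulfide enzymes, 2 of 4 for the stress transcription factors, 5 of 8 for COPII, 7 of 8 for COPI and 8 of 10 for cargo receptors. Of the other 18 genes, 14 were under the limit on every array and 4 (Sec63, Copb1, Sec23ip and Srp19) exceeded it on some.

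**Figure D1:**
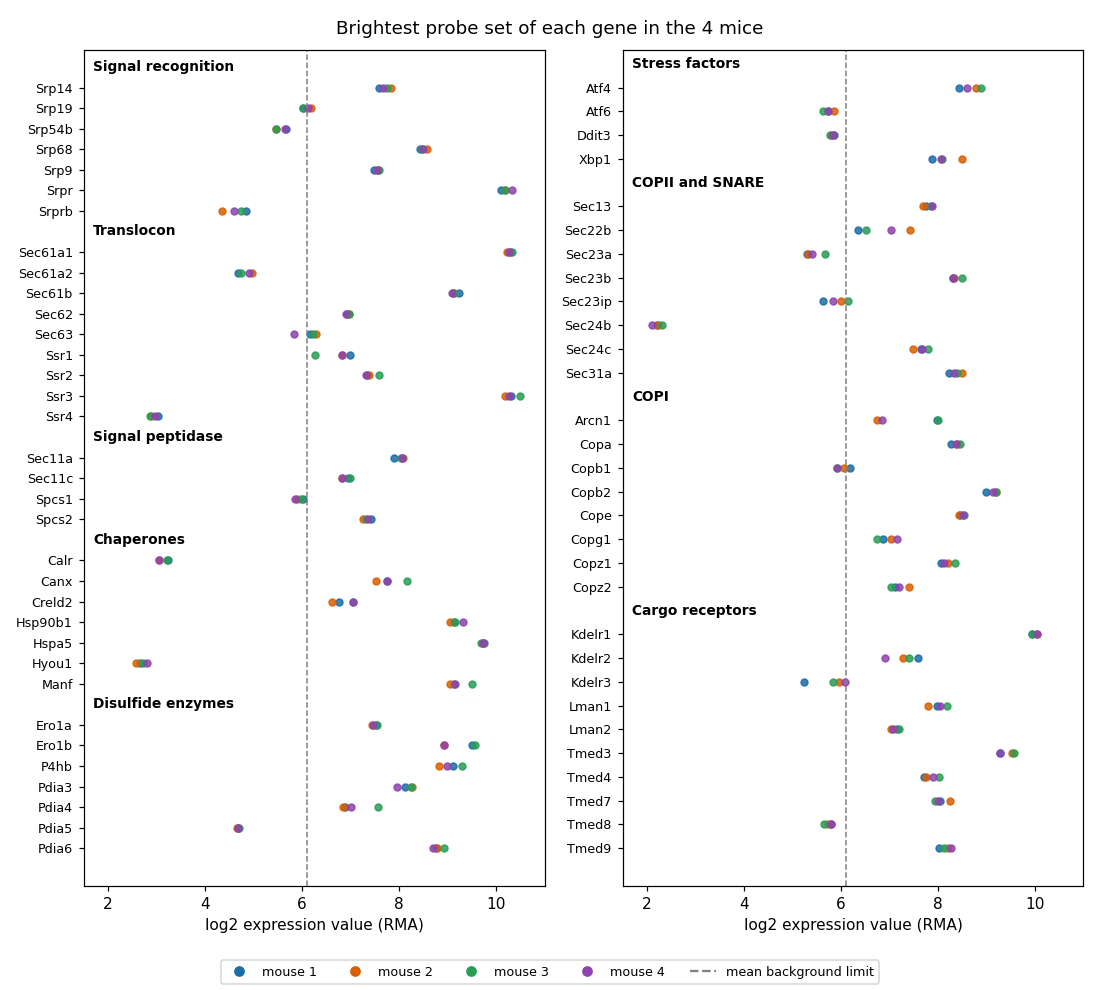
Log2 expression value (RMA, horizontal axis) of the brightest probe set of each of the 64 genes in mice 1 to 4 (coloured points), grouped by role; the dashed line is the mean background limit of 6.10. The points of most genes overlap, while Arcn1, Sec22b, Ero1b and Pdia4 are spread out and Calr, Hyou1 and Ssr4 lie far left of the line.

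A value under the limit does not show that a gene was silent, and the array itself gives the measure of this. Of the 21 genes read by more than 1 probe set, 14 had a probe set above the range and another that was not, on the same RNA. P4hb had 9.06 ± 0.20 on one probe set and 4.28 ± 0.04 on another (SD, n = 4 each). The brighter of these has a letter suffix in its name and the dimmer has none. Which reading lies nearer the level of the gene was not tested. Of the 90 member probe sets, 21 have a letter suffix, among them the brightest of P4hb, Sec62 and Copb2. For Lman1, a lectin that carries glycoproteins out of the ER, the brightest probe set was above the range on all 4 arrays while the others averaged 2.47 ± 0.05 and 2.24 ± 0.10 (SD, n = 4 each). The remaining 7 genes had all probe sets above (Copg1, Pdia6, Sec61a1, Srpr, Ssr3 and Tmed7) or none (Sec23a). The single probe sets of Calr, Hyou1 and Ssr4, all 3 under the limit on every array, were the only reading of those genes, so no level can be given for them.

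Entry into the ER was read steadily in all 4 mice. Srpr, the receptor subunit that docks the signal recognition particle, had 10.11, 10.18, 10.18 and 10.33 in mice 1 to 4. The signal recognition particle genes Srp14 (7.59, 7.84, 7.75 and 7.67), Srp68 (8.44, 8.59, 8.48 and 8.49) and Srp9 (7.49, 7.56, 7.59 and 7.55) differed little between mice, and the role had the lowest median SD of all 9, at 0.08 over 4 genes. On their brightest probe sets, all 4 of these genes were lowest in mouse 1, by small amounts. The other probe set of Srpr, also above the range, was instead highest in mouse 1 (7.83, 7.79, 7.69 and 7.67). A dim probe set of Srp14, under the limit, was highest in mouse 1 too. Srp19 (6.08 ± 0.08, SD, n = 4), Srp54b (5.56 ± 0.12) and the receptor partner Srprb (4.64 ± 0.21) were not above the range.

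The channel gene Sec61a1 had 10.29, 10.24, 10.32 and 10.26 in mice 1 to 4, and the gene of its small partner Sec61b averaged 9.14 ± 0.06 (SD, n = 4). Sec62, an accessory channel protein gene, was among the steadiest members on its brightest probe set, at 6.93, 6.98, 6.97 and 6.91. Its other probe sets, under the limit on every array, had SDs of 0.16 and 0.05. The translocon-associated protein genes differed more. Ssr1 had 6.99, 6.82, 6.28 and 6.82, with mouse 3 below the others, and its dimmer probe set was also lowest in mouse 3 (5.27, 5.19, 5.02 and 5.29). Ssr2 (7.33, 7.39, 7.59 and 7.32) and Ssr3 (10.31, 10.19, 10.49 and 10.26) were instead highest in mouse 3. Ssr1 had an SD of 0.31 that did not pass the variance test described below (adjusted p = 0.71, limma). Sec63 (6.13 ± 0.20), Sec61a2 (4.83 ± 0.13) and Ssr4 (2.94 ± 0.08) were not above the range.

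Signal peptidase genes were nearly as even, with a median SD of 0.09 over the 3 genes above the mean limit. Sec11a, a catalytic subunit gene, had 7.89, 8.08, 8.05 and 8.07, with mouse 1 apart from the rest. Sec11c, the gene of the other catalytic subunit, had 6.95, 6.82, 7.00 and 6.84, and Spcs2 had 7.41, 7.27, 7.33 and 7.36. Spcs1, at 5.94 ± 0.08 (SD, n = 4), stayed just under the limit.

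Among chaperones, Hspa5 was nearly identical between mice. It had 9.75, 9.74, 9.70 and 9.72 in mice 1 to 4, an SD of 0.02, the lowest of the 47 member genes whose brightest probe set averaged above the mean limit. Hsp90b1, the ER member of the HSP90 family, had 9.13, 9.05, 9.16 and 9.31. Other genes of the group spread more widely. Canx, the membrane lectin chaperone calnexin, had 7.75, 7.53, 8.16 and 7.76, and its dimmer probe set was likewise highest in mouse 3 (3.70, 3.70, 3.88 and 3.79). Manf, a secreted ER stress protein gene, had 9.14, 9.04, 9.51 and 9.16. Creld2, another gene of the ER stress response, had 6.76, 6.62, 7.05 and 7.06. Mouse 3 was thus highest for Canx and Manf, and level with mouse 4 for Creld2. These 4 genes other than Hspa5 were lowest in mouse 2. Calr, the soluble lectin chaperone calreticulin, had 3.25, 3.05, 3.22 and 3.06, and Hyou1, a large HSP70 relative, had 2.66, 2.59, 2.73 and 2.81.

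Among disulfide enzymes, mouse 3 was on top for most genes by their brightest probe sets. Pdia4 had 6.89, 6.85, 7.56 and 7.01, so mouse 3 was 0.55 log2 units above the next mouse. P4hb, the main protein disulfide isomerase gene, had 9.12, 8.83, 9.29 and 8.99. Its dimmer probe set, under the limit on every array, was instead highest in mouse 2 (4.30, 4.32, 4.29 and 4.22). Ero1b, an oxidase that recharges the isomerases, had 9.51, 8.92, 9.57 and 8.93, so that mice 1 and 3 stood above mice 2 and 4. Its relative Ero1a was even between mice, at 7.53, 7.44, 7.55 and 7.47, but kept the same 2 mice on top. Pdia6 averaged 8.79 ± 0.10 and Pdia3, the isomerase that works with calnexin, 8.15 ± 0.14 (SD, n = 4 each), while Pdia5 (4.68 ± 0.01) was not above the range. Mouse 3 was highest for 5 of the 6 genes with a mean over the limit, all but Pdia3, and mouse 2 was lowest for 4. The SDs of Ero1b (0.35, adjusted p = 0.573, limma) and Pdia4 (0.33, adjusted p = 0.649, limma) did not pass the variance test. The Ero1b probe set is of a type marked by Affymetrix as shared within a sequence family.

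**Figure D2:**
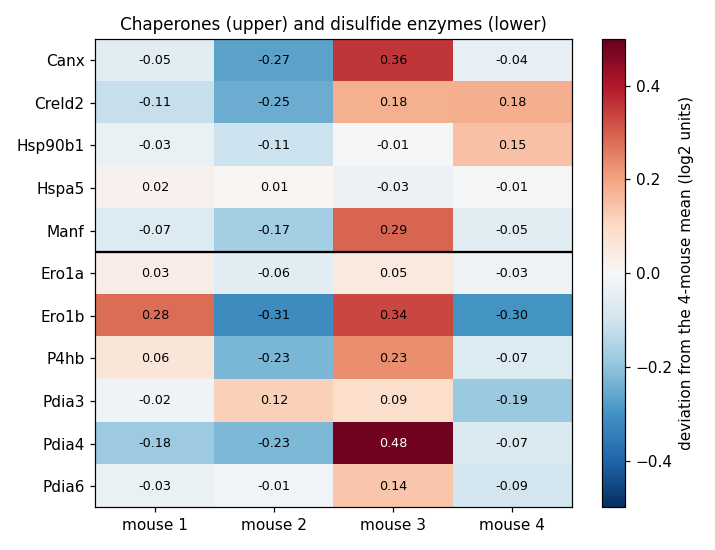
Deviation of each gene from its own 4-mouse mean (log2 units, colour and number) for chaperone genes (above the line) and disulfide enzyme genes (below it) whose brightest probe set averaged above the mean limit; columns are mice 1 to 4. Mouse 3 is reddest in most rows, led by Pdia4 (log2 value 7.56), while Hspa5 is close to white throughout.

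Genes with the ERSE did not share an order of the mice. Of the 6 with a probe set above the range, 3 were highest in mouse 3 (Canx, Ero1b and Pdia6). Another 2 were highest in mouse 4 (Creld2 and Hsp90b1) and 1 in mouse 1 (Hspa5), all by the brightest probe set. Creld2 was almost level in mice 3 and 4 (7.05 and 7.06), and Hspa5 ranged over only 0.05 log2 units. Canx, Creld2, Ero1b and Hsp90b1 were lowest in mouse 2, Pdia6 in mouse 4 and Hspa5 in mouse 3. The other gene with the motif, Calr, was not above the range. Their SDs ran from 0.02 for Hspa5 to 0.35 for Ero1b. Pdia4, the disulfide enzyme gene with mouse 3 furthest above the rest, held none of the 3 motifs in its window. Only exact letters were searched, so this does not show that Pdia4 lacks such an element. Any part of the motifs in the differences between mice was not tested.

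The stress transcription factor genes gave signal in part. Atf4, which drives amino acid and redox genes under stress, had 8.44, 8.78, 8.89 and 8.60 in mice 1 to 4. Xbp1, whose mRNA is spliced by IRE1 during ER stress, had 7.88, 8.49, 8.08 and 8.06, with mouse 2 apart. Both were lowest in mouse 1. The array reads total Xbp1 and does not separate its spliced form. Atf6, at 5.73, 5.87, 5.64 and 5.74, and Ddit3, the gene of the stress factor CHOP, at 5.86, 5.80, 5.78 and 5.84, were not above the range in any mouse. The order of the mice for Xbp1 was not that of Canx, Manf or Pdia4. Atf4 was highest in mouse 3, as were Canx, Manf and Pdia4, but these were lowest in mouse 2 and not in mouse 1.

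COPII coat genes were mostly steady. Sec31a, of the outer coat, had 8.23, 8.50, 8.39 and 8.33, Sec24c, of the cargo-binding inner coat, had 7.65, 7.48, 7.79 and 7.68, and Sec13, of the outer coat, had 7.75, 7.70, 7.86 and 7.87. Sec23b, an inner coat gene, averaged 8.37 ± 0.09 (SD, n = 4). The widest member of the group was Sec22b, a SNARE that works in fusion of ER to Golgi vesicles. It had 6.35, 7.43, 6.51 and 7.03 in mice 1 to 4, a 2.12-fold range, with mice 2 and 4 above mice 1 and 3. Its SD of 0.50 was the second largest of all 90 probe sets and did not pass the variance test (adjusted p = 0.178, limma). Its dimmer probe set, under the limit on every array, was also highest in mouse 2 and lowest in mouse 1, but placed mouse 3 above mouse 4 (4.34, 4.77, 4.72 and 4.38). Sec23a (5.43 ± 0.17), Sec23ip (5.90 ± 0.22) and Sec24b (2.22 ± 0.08) were not above the range. Sec23ip encodes a partner of SEC23 and not a coat subunit.

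The COPI coat held the single probe set that passed the test. This probe set, the brightest of Arcn1, the delta subunit gene, had 7.98, 6.74, 8.01 and 6.85 in mice 1 to 4. Like that of Ero1b, it has a letter suffix by which Affymetrix marks probes that can match more than 1 transcript. Mice 1 and 3 stood apart from mice 2 and 4, with a 2.42-fold range from mouse 2 to mouse 3 with an SD of 0.69 (adjusted p = 0.0413, limma). The other probe sets of the gene, under the limit on every array, did not show this order. They had 4.60, 4.19, 4.31 and 4.35, and 3.54, 3.90, 3.97 and 3.46, in mice 1 to 4. The mean over the 3 probe sets had an SD of 0.28 (adjusted p = 0.836, limma). The call also ended without mouse 2 (SD 0.66, adjusted p = 0.0838, limma) and without mouse 4 (SD 0.73, adjusted p = 0.0915, limma), and ended under 6 further settings, with adjusted p from 0.0504 to 0.255 (limma).

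No other COPI subunit gene had mice 1 and 3 above mice 2 and 4 on its brightest probe set. Copa had 8.38 ± 0.08, Copb2 9.14 ± 0.10, Copz1 8.19 ± 0.12 and Cope 8.49 ± 0.05 (SD, n = 4 each). Cope, the epsilon subunit, was the steadiest at 8.46, 8.44, 8.55 and 8.52. Copg1 had 6.87, 7.03, 6.74 and 7.15, and Copz2 had 7.13, 7.40, 7.03 and 7.19. On these 2 brightest probe sets mice 1 and 3 were below mice 2 and 4, opposite to the brightest of Arcn1. The other probe set of Copg1, also above the range on all 4 arrays, had mice 1 and 3 above mice 2 and 4. The order was thus not the same on both readings of Copg1. Copb1 averaged 6.02 ± 0.13 and was above the limit on 2 arrays. Among these brightest probe sets the widest range was 0.41 log2 units, in Copg1, against 1.27 in the Arcn1 probe set. A dimmer probe set of Copb2, under the limit on every array, ranged over 0.94 log2 units (4.79, 5.72, 5.27 and 4.82), highest in mouse 2, with an SD of 0.44 (adjusted p = 0.309, limma).

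**Figure D3:**
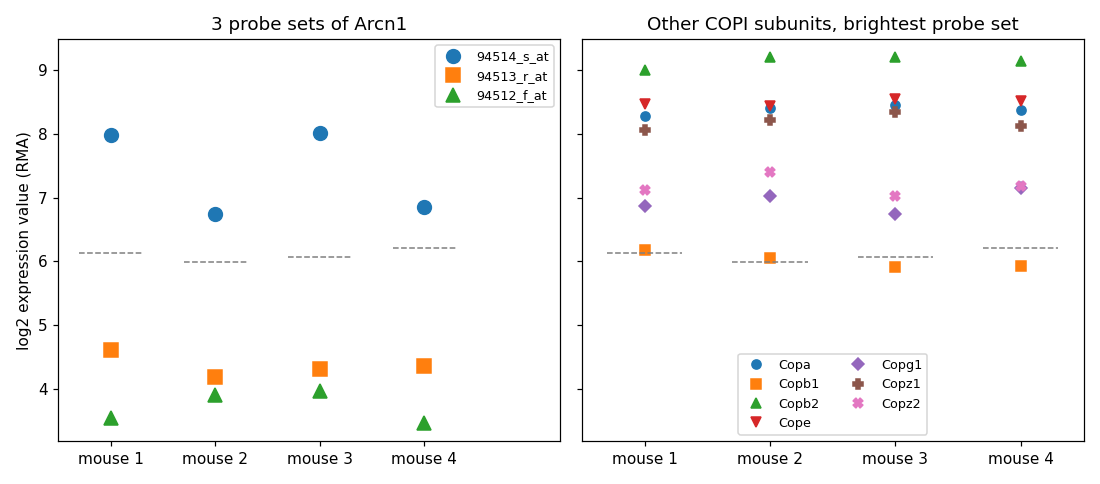
Log2 expression values (RMA, vertical axis) in mice 1 to 4 for the 3 probe sets of Arcn1 (left) and for the brightest probe set of the other COPI subunit genes (right); dashed lines are each array's background limit. The brightest Arcn1 probe set is near 8 in mice 1 and 3 and under 7 in mice 2 and 4, while the widest of the others, Copg1, spans 0.41 log2 units.

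The cargo and retrieval receptor genes had a median SD of 0.14 over the 8 genes above the mean limit. Kdelr1, a receptor that returns ER proteins carrying a KDEL tail, had 9.95, 10.03, 9.94 and 10.04 in mice 1 to 4. Its relative Kdelr2 had 7.58, 7.28, 7.41 and 6.91, lowest in mouse 4 (SD 0.29, adjusted p = 0.796, limma). Kdelr3 was under the limit on every array at 5.25, 5.97, 5.83 and 6.08 (SD 0.37, adjusted p = 0.473, limma). Among the Tmed genes, whose products are cargo receptors of the p24 family, Tmed3 had 9.29, 9.52, 9.56 and 9.29, and Tmed4, Tmed7 and Tmed9 averaged 7.85 ± 0.14, 8.06 ± 0.13 and 8.16 ± 0.11 (SD, n = 4 each). Lman1 had 7.98, 7.80, 8.20 and 8.04, Lman2 averaged 7.12 ± 0.07, and Tmed8 (5.74 ± 0.07) was not above the range.

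Whether these genes differed between mice beyond the general spread of the arrays was tested with limma's variance model, which sets the variance of a probe set over the 4 arrays against the prior variance fitted to all 12422 probe sets, with Benjamini-Hochberg adjustment. With 4 arrays this test reaches only spreads several times the prior, so a spread that did not pass is not shown to be ordinary. At an adjusted p under 0.05, 1 of 90 member probe sets (Arcn1) was called, against 35 of 12422 (0.282%) over the array and 20 of 10833 (0.185%) among probe sets that name a single gene. At an unadjusted p under 0.05 stood 11 of 90 (12.2%), against 676 of 12422 (5.44%). These 11 were 2 probe sets of Arcn1 and 1 each of Sec22b, Copb2, Kdelr3, Ero1b, Pdia4, Ssr1, Kdelr2, Canx and Xbp1, and 8 of them were above the background range. A range over 0.5 log2 units was seen in 12 of 90 member probe sets (13.3%), against 1060 of 12422 (8.53%). Above the mean limit it was seen in 8 of 55 members (14.5%), against 384 of 3310 (11.6%). The median SD was 0.115 for member probe sets and 0.112 for all. Limited to probe sets averaging above the mean limit, it was 0.113 over 55 members and 0.114 over 3310 in all, so the typical member varied about as much as the typical probe set.

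**Figure D4:**
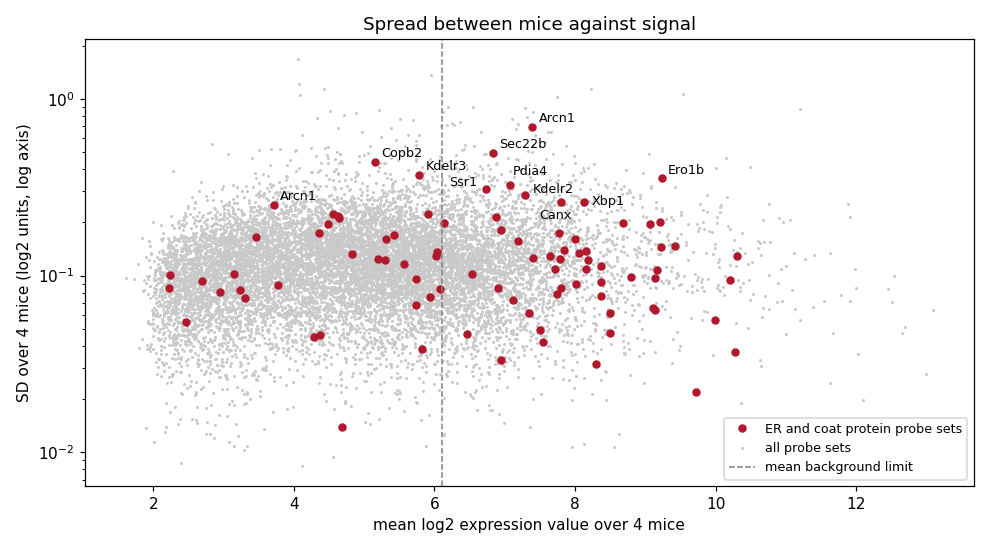
SD over the 4 mice (log2 units, log axis) against mean log2 expression value for the 90 member probe sets (red) and all 12422 probe sets (grey); the 11 member probe sets at an unadjusted p under 0.05 are labelled with their gene. Arcn1 and Sec22b are highest among the red points, at SDs of 0.69 and 0.50, and the rest lie within the grey cloud.

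The mouse in which a gene was highest was less evenly spread. Of the 47 member genes whose brightest probe set averaged above the mean limit, 24 (51.1%) were highest in mouse 3, against 721 of 2684 genes (26.9%) over the array. For mice 1, 2 and 4 the counts were 5 (10.6%), 11 (23.4%) and 7 (14.9%), against 23.1%, 30.3% and 19.7% of all genes. The lowest value fell in mice 1 to 4 for 16 (34%), 18 (38.3%), 6 (12.8%) and 7 (14.9%) member genes, against 24.2%, 30.4%, 23.4% and 22% of all genes. The split seen in Arcn1 and Ero1b, with mice 1 and 3 both above or both below the other two, was about as common here as elsewhere. It held for 17 of the 47 genes (36.2%), against 950 of 2684 (35.4%). Of the 54 pathway genes outside the rule and above the same limit, 22 (40.7%) were highest in mouse 3, among them Fkbp11 (7.39, 6.79, 7.50 and 6.86), an ER prolyl isomerase gene, and Qsox1 (10.47, 9.84, 10.60 and 9.66), a secreted sulfhydryl oxidase gene. The share was 5 of 6 for disulfide enzymes, 5 of 7 for COPI, 4 of 8 for cargo receptors, 3 of 7 for the translocation channel, 2 of 5 each for chaperones and COPII, 1 of 2 for the stress factors, 1 of 4 for signal recognition and 1 of 3 for signal peptidase. Genes of 1 array share its labelling and scaling and are no replicates, so this count is a description of 4 mice and was not tested.

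Most of these margins were small. The gap between mouse 3 and the next mouse had a median of 0.11 log2 units over the 24 genes. It exceeded 0.3 for 3 of them, Pdia4, Canx and Manf, and was as low as 4e-04 for Copb2. With every gene centred on its average over the mice, the mean deviation was -0.03, -0.01, 0.08 and -0.03 in mice 1 to 4 over the 47 genes, against -0.0073, 0.0194, 0.0023 and -0.0144 over all 2684. In mouse 3 it was 0.22 for disulfide enzymes, 0.16 for chaperones, 0.09 for COPI, 0.06 for cargo receptors and 0.04 for signal peptidase. For the translocation channel (0.0106), signal recognition (0.0118) and COPII (0.0093) it was near 0 in mouse 3. The stress factors, only 2 genes (Atf4 and Xbp1), had -0.24, 0.23, 0.08 and -0.07 in mice 1 to 4, highest in mouse 2. The COPI value came to 0.0057 when the probe sets of each gene were averaged instead of taking the brightest. Of the 6 genes with all probe sets above the range, none had the same highest mouse on each of them.

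**Figure D5:**
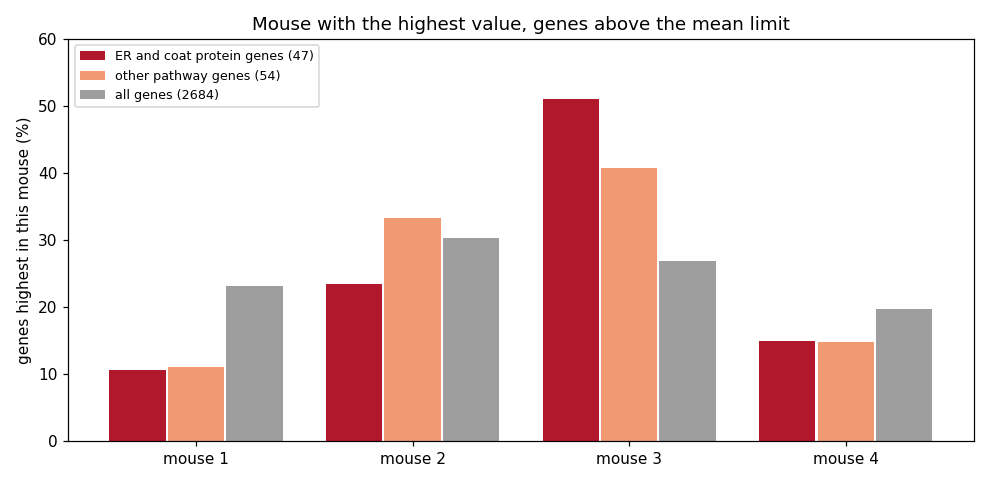
Percentage of genes (vertical axis, from 0) that were highest in each of mice 1 to 4, for the 47 ER and coat protein genes above the mean limit (red), 54 other genes of the pathway (orange) and all 2684 genes above it (grey). The red bar reaches 51.1% in mouse 3, the orange bar 40.7% and the grey bar 26.9%.

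Other features of the arrays moved between the mice as well. Control probes for the 3' end of beta-actin, set against those for its 5' end as a sign of RNA quality, were higher by 1.08, 0.82, 1.02 and 0.98 log2 units in mice 1 to 4. This difference was larger in mice 1 and 3, as were Arcn1 and Ero1b. Mice 3 and 4 had actin differences of 1.02 and 0.98, with 8.01 and 6.85 for Arcn1 and 9.57 and 8.93 for Ero1b. The difference between 3' and 5' control probes for Gapdh was -0.12, -0.15, -0.15 and -0.13. Plasma cells, which are rich in ER, and B cells were followed together by 9 markers, of which 8 were measured. Of these markers, 2 (Ighm and Igha) were above the range in all mice. Their summed log2 values were 47.3, 49.3, 49.2 and 44.4, lowest in mouse 4, and 4 of their 27 probe sets passed the variance test (limma). Of these 4, a probe set each of Igha (7.00, 7.96, 7.98 and 6.34), Jchain (5.86, 6.55, 6.74 and 5.20) and Ighm (6.89, 7.70, 7.87 and 6.33) was highest in mouse 3, just above mouse 2. The other, also of Ighm, was highest in mouse 2 (8.51, 9.14, 8.67 and 6.57). Not all markers were lowest in mouse 4. By their brightest probe sets, none above the range, Cd79a (6.13, 5.84, 5.90 and 6.17), Sdc1 (5.35, 5.31, 5.24 and 5.53) and Prdm1 were highest in mouse 4. Cd79b was highest in mouse 3 and Ms4a1 in mouse 2. The summed values of the 6 smooth muscle genes were 58.7, 55.5, 56.2 and 55.8, highest in mouse 1. The 6 seminal vesicle secretion genes summed to 74.0, 74.7, 73.9 and 73.9, and the 4 luminal genes to 31.1, 31.8, 30.6 and 31.8, so neither list was highest in mouse 3. The 4 macrophage genes were, with sums of 24.1, 24.7, 25.0 and 23.6. By their brightest probe sets, Cd74, Adgre1 and Csf1r were highest in mouse 3 and Cd68 in mouse 2. Only Cd74 was above the range. The part of RNA quality and cell makeup in the differences between mice was not tested.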

How the data were processed

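Total RNA of 4 seminal vesicles was measured on Affymetrix Mu74AV2 arrays. The authors deposited RMA results, per the submitters' processing notes, as 1 log2 expression value for each probe set and array. The RMA version and the set of arrays it ran on are not stated in these sources, and the log2 scale was read from the values (1.47 to 13.2). RMA aligns the distributions of the arrays, so a shift shared by most genes would not appear, and it shrinks differences of dim probe sets. Having only 4 arrays limits precision.

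The 66 control probe sets were kept out, which left 12422. Names came from the platform annotation, matched by gene ID to RefSeq (assembly GRCm38.p6) for all 90 member probe sets. A further 5 probe sets, each listing several genes with a match to the naming rule among them, were not used. Promoter sequences are RefSeq's (GRCm38.p6). Protein sequences were not used here, so the planned search for C-terminal retrieval signals was not run.

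Mouse numbers follow accession order and serve only as names. The test was limma's prior variance fit (robust, trend on mean signal, 8.06 prior and 3 residual degrees of freedom) with an upper-tail F test, adjusted by Benjamini-Hochberg over all 12422 probe sets, and checked on simulated data, in which it found only probe sets whose SD was raised several-fold over the prior. Since the prior comes from the very variances under test, the share at an unadjusted p under 0.05 over the whole array is largely built in. P-values measure only the spread between these samples. A gene was represented by its brightest probe set. The members and lists, and the other-organ list that sets the background limit, were chosen with earlier results of these data known. By the rule for named genes, values in every mouse are given for called probe sets, for 10 main chaperone, disulfide and stress factor genes, and, among genes above the range, for the 3 of largest and the 1 of smallest SD in each role. Kdelr3, the dimmer probe sets named, the Rpn genes and the sequences shown were chosen after values were seen. The values of Sec61a1, Cd79a and Sdc1 in every mouse are also given outside the rule. Alternatives covered scaling, each mouse left out, the prior fit, filters on dim probe sets, background limits and the combining of probe sets. Software was limma 3.58.1 under R 4.3.3, and matplotlib 3.10.9 under Python 3.11.15.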

Additional observations from a re-analysis of the deposited data

Results flagged for a closer look

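In 3 member probe sets and in 1 other probe set named in the text, a single mouse stood apart from the other 3, by a gap that took up more of the range of the values than Dixon's 95% critical value for 4 samples. Sec11a had 7.89 in mouse 1 against 8.08, 8.05 and 8.07 in mice 2, 3 and 4, a ratio of gap to range of 0.853. Sec23b had 8.50 in mouse 3 against 8.31, 8.34 and 8.32 in mice 1, 2 and 4 (ratio 0.849). A dim probe set of Sec62, under the background limit on every array, had 4.30 in mouse 2 against 4.38, 4.39 and 4.39 in mice 1, 3 and 4 (ratio 0.916). Of the pathway genes outside the naming rule, Rab2a, a small GTPase of ER to Golgi transport, had 7.99 in mouse 2 against 7.11, 7.06 and 7.21 in mice 1, 3 and 4 (ratio 0.844). Chance marks about 1 in 20 groups. Of the member probe sets, 3 of 90 (3.33%) passed, and of those of the pathway genes outside the rule 10 of 104 (9.62%), against 632 of 12422 (5.09%) over the array.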

How the results depend on the processing

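The count of member probe sets called was 1 or 0 throughout. It was 0 by limma with arrays shifted to the same median (10 at an unadjusted p under 0.05), quantile normalized again (10), a non-robust prior fit (10), no trend (11), only probe sets above the mean limit (5 of 55), only those above the median signal (8 of 70) and probe sets averaged within each gene (7 of 64). Leaving out each mouse gave 0 to 1, with 0 without mouse 2 and without mouse 4. Of the other 42 probe sets whose SD was recomputed, none passed under any of these settings (lowest adjusted p 0.0884, limma). The count of member genes above the background range ran from 44 of 64 with the 95th percentile (20.1% of all genes) to 57 of 64 with the 75th (56.1%), and was 46 to 47 with each mouse left out. The mean deviation of signal recognition genes in mouse 1 was -0.0846, and -0.0134 with dim genes kept. That of COPII genes in mouse 1 was -0.144, and -0.0302 with probe sets averaged within each gene. That of COPI in mouse 3 was 0.09, and 0.0057 with that averaging. Of 8 role groups, 1 mouse each was recomputed, and in the other 5 the deviation moved by less than the spread between mice. The stress factors were not recomputed. The count of genes highest in mouse 3, examined after seeing the data, was 22 of 47 with arrays shifted to the same median (23.3% of all genes), 25 of 47 quantile normalized again (25.4%), and 18 of 37 with probe sets averaged within each gene (26.4%). Without mouse 1, 2 or 4 it was 26 of 48, 29 of 46 and 28 of 48 (35.9%, 37.8% and 33.4% of all genes). No paired analysis was possible because the mice form 1 group and the labels give no replicate numbers.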
